A study of Mus musculus with 15 samples.

Results

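Primary mouse hepatocytes that had been in a rotating wall vessel (RWV) for 4 h were compared with freshly isolated hepatocytes (t0). The comparison took the 3 arrays of RWV_4h and the 3 of t0, 6 of the 15 arrays of the series, and every probe set with a single gene symbol in the platform annotation (34945 of 45101). After background probe sets had been left out and 1 probe set had been taken per gene, 12423 of 18193 genes could be tested. All cells were hepatocytes of male C57BL/6 mice, and the fresh cells are labelled as freshly isolated. A rotating wall vessel is a slowly turning culture chamber that keeps cells in suspension, where hepatocytes gather into 3-dimensional aggregates. The series also holds cells cultured as a monolayer in a tissue culture dish (TCD) for 4 h or 24 h and aggregates at 24 h, 3 arrays each. They are used here to show where the aggregates at 4 h differed from the monolayer of the same age (TCD_4h) and what had changed further by 24 h (RWV_24h). The labels give the replicates as independent and biological, and give neither the age of the mice, nor the isolation procedure, nor the medium, so time after isolation, transfer to culture and aggregation cannot be told apart in the comparison with fresh cells.

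The hepatocyte carries most of the metabolic work of the liver: it makes plasma proteins, glucose and bile acids, disposes of ammonia and modifies drugs. These functions depend on a network of transcription factors, among them Hnf4a and Cebpa, that stays active in contact with neighbouring cells and matrix. When cells are taken out of the tissue, immediate early transcription factors are usually transcribed first, followed by genes of inflammation, of the stress responses and of ribosome production. The integrated stress response is a branch in which phosphorylation of the initiation factor eIF2 lowers protein synthesis and favours translation of the transcription factor Atf4, which in turn drives genes of amino acid supply.

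The deposited values are log2 signals from which the authors had subtracted the median of the fresh arrays, so each value is a change from fresh cells and no expression level can be read from it, not even whether a marker of hepatocytes is expressed. A change of 1 is a doubling. Errors after ± are standard errors of the difference between the means of 3 and 3 arrays, and p-values were adjusted over all 12423 genes; a gene was called at an adjusted p below 0.05. Some genes spanned less than 0.1 over the fresh arrays, as did 91.9% of the probe sets taken as background; they were 2490 of the 12423 genes tested and 93 of the 1303 called genes that rose at least 2-fold. Fresh values of such genes may lie at the floor of the signal scale, where a change can be understated; among the genes described below that rose, they are Sprr1a, Lgals3, Tmsb10, Fosl1, Dusp5, Fgf21, Cdkn2b and Inhba. Of RNA quality only a shift from the fresh arrays can be read, since each control probe set also had its fresh median subtracted. The change of the 3' minus that of the 5' control signal of Actb lay between -0.30 and -0.20 in the RWV_4h arrays. In the fresh arrays it lay between -0.10 and 0, which is near 0 by construction. For Gapdh the 2 ranges were -0.10 to 0.02 and -0.07 to 0. The part of RNA quality in the results was not tested. The hybridisation controls of TCD_4h replicate 2 stood apart (median 1.08).

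After 4 h in the vessel 3671 genes were called against fresh cells (29.6% of those tested), 1880 higher (15.1%) and 1791 lower (14.4%). Of the called genes 1303 rose at least 2-fold and 702 fell at least 2-fold, 230 rose and 34 fell at least 8-fold, and 30 rose and 0 fell at least 64-fold. The fresh and aggregate arrays did not overlap in 3546 of the called genes and in 6356 of all 12423 genes tested. The median change of all genes was -0.07. When the arrays were centred on reference genes instead, this median moved to -0.28 and the split of the calls to 1570 higher and 4052 lower, or 27.9% higher in place of 51.2%, with 1070 at least 2-fold higher and 1125 at least 2-fold lower. Under quantile normalisation between arrays 1579 genes were called, 870 higher and 709 lower. This step gives all arrays the same distribution, and here it was applied to values that were already changes from the fresh median. Fresh arrays lie close to that median by construction, so the step can widen their spread and shrink changes in the cultures. A call lost under it, here or below, therefore cannot decide whether a change is absent. Because centring moved the median of all genes, small shifts of a gene or list are read against that median.

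The 10 largest increases were in genes of tissue injury, inflammation, the cytoskeleton and serine synthesis. Sprr1a, a precursor of the cornified envelope of epithelia that is induced in injured tissues, stood at -0.05, 0.01 and 0 in the fresh arrays and at 9.73, 11.25 and 10.85 in the aggregates, a rise of 10.62 ± 0.40 (adjusted p = 5.64e-09). Klf6, a zinc finger factor of wound responses, stood at 0.19, -0.23 and 0 in fresh cells and at 8.14, 8.56 and 8.74 in aggregates, a rise of 8.49 ± 0.20 (adjusted p = 1.61e-10) that all 5 of its probe sets shared. In both genes every aggregate array lay more than 7 log2 units above every fresh array, and the monolayer arrays lay in the range of the aggregates or close to it. Il1rn, the antagonist of the interleukin-1 receptor, rose by 8.29 ± 0.54 to 8.55, 8.36 and 9.12, and Cd14, the co-receptor for bacterial lipopolysaccharide, rose by 8.09 ± 0.29 to 7.9, 8.43 and 8.24. Lgals3, which encodes galectin-3, rose by 7.96 ± 0.68, to 8.18, 6.6 and 9.09. Adm, the vasodilator peptide adrenomedullin, rose by 7.16 ± 0.82 although its fresh arrays were far apart (2.4, -2 and 0). Cd68, a glycoprotein of lysosomes that is abundant in macrophages, rose by 7.22 ± 0.16, with 0, -0.1 and 0.08 in fresh cells and 7.18, 7.56 and 6.89 in aggregates. Anxa2 (annexin A2, 8.003 ± 0.31) and Tmsb10 (thymosin beta 10, which binds actin monomers, 7.70 ± 0.34) rose by the probe set used here, but only 1 of 2 and 3 of 5 of their probe sets were called. With the probe set of median spread Anxa2 stood at -0.07, and without probe sets of shared sequence Tmsb10 stood at -0.04, neither of them called. Psat1, the remaining gene, is described with the integrated stress response. Adm lost its call under quantile normalisation.

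**Figure D1:**
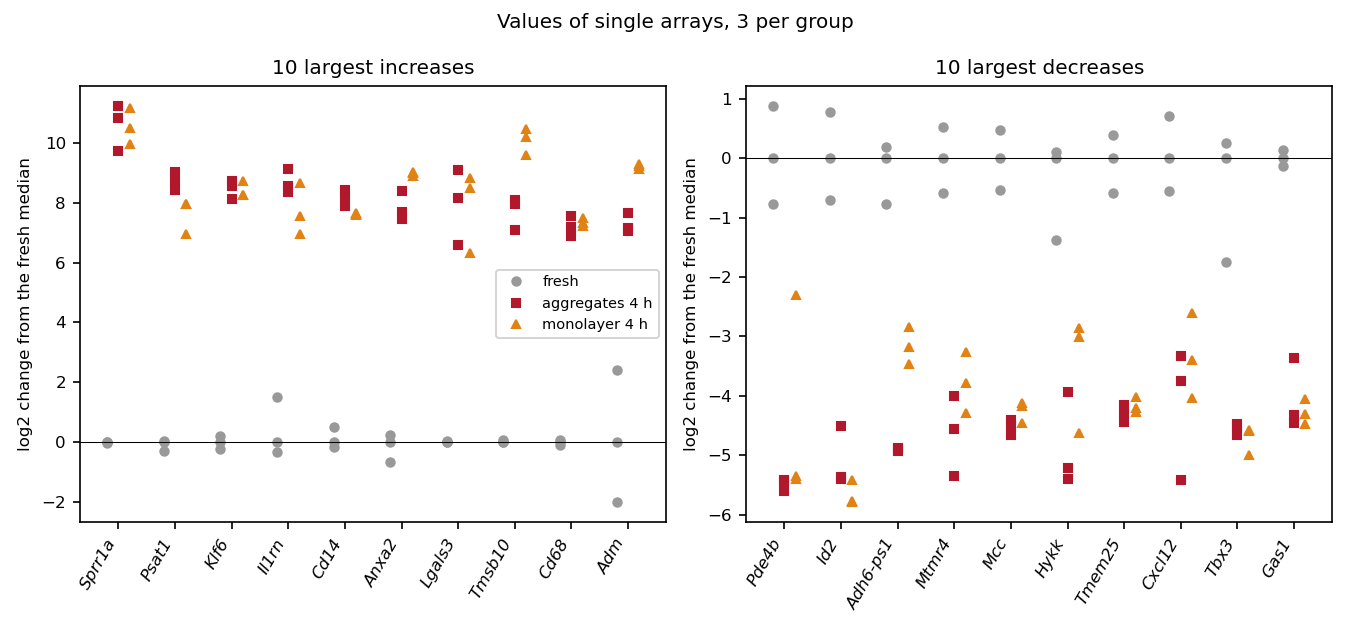
Log2 change from the fresh median in single arrays (vertical axis) for the 10 genes with the largest increases and the 10 with the largest decreases, with grey circles for fresh cells, red squares for aggregates at 4 h and orange triangles for the monolayer at 4 h. The 20 genes were chosen among those whose aggregate and fresh arrays do not overlap; Sprr1a reaches 9.73 to 11.25 in aggregates, and Tmsb10 is higher in the monolayer than in the aggregates.

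The 10 largest decreases were mostly in genes of signalling and transcription. Id2, an inhibitor of basic helix-loop-helix factors, stood at 0, -0.71 and 0.78 in fresh arrays and at -5.39, -4.5 and -5.36 in aggregates, a change of -5.10 ± 0.56 (adjusted p = 3.38e-05). All 3 of its probe sets were called lower, but the others changed much less (-1.89 and -1.76). Gas1, a membrane-anchored protein that arrests growth, stood at 0, -0.14 and 0.13 and at -3.36, -4.32 and -4.45, a change of -4.04 ± 0.23 (adjusted p = 1.66e-07). The aggregate values of both genes lay at least 3 log2 units below all fresh values. Tbx3, a transcription factor of hepatocytes around the central vein and a target of Wnt signalling, changed by -4.05 ± 0.40, and the chemokine Cxcl12 by -4.21 ± 0.68, with -3.75, -3.32 and -5.41 in single arrays. The other probe set of Tbx3 changed by -1.86. The phosphoinositide phosphatase gene Mtmr4 changed by -4.62 ± 0.36, Mcc by -4.50 ± 0.20, the hydroxylysine kinase gene Hykk by -4.42 ± 0.61 and Tmem25 by -4.23 ± 0.20. Adh6-ps1 changed by -4.70 ± 0.21, further than in the monolayer (-2.96; adjusted p of the difference = 0.00112, not called under quantile normalisation). Pde4b, a phosphodiesterase that degrades cyclic AMP, changed by -5.52 ± 0.66, but of its 3 probe sets 1 was called lower and 1 higher, so its direction is uncertain. Pde4b lost its call with the mean of the probe sets.

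Genes were also counted in 41 lists of pathways and functions. The shares of members called higher were largest in ribosome biogenesis (39 of 45), the integrated stress response with serine synthesis (19 of 23), glycolysis and hypoxia (17 of 28), cytosolic aminoacyl-tRNA synthetases (11 of 19) and NF-kB with chemokines (15 of 27), against 15.1% of all genes tested. The shares called lower were largest in liver transcription factors (14 of 29) and the respiratory chain with the tricarboxylic acid cycle (12 of 37), against 14.4%. These shares of all genes apply to every list count below, and nothing is read from counts near them. Immediate early transcription factors moved both ways, with 15 of 31 higher and 7 lower. Under quantile normalisation the higher counts of the 5 lists were 23, 15, 8, 4 and 13.

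**Figure D2:**
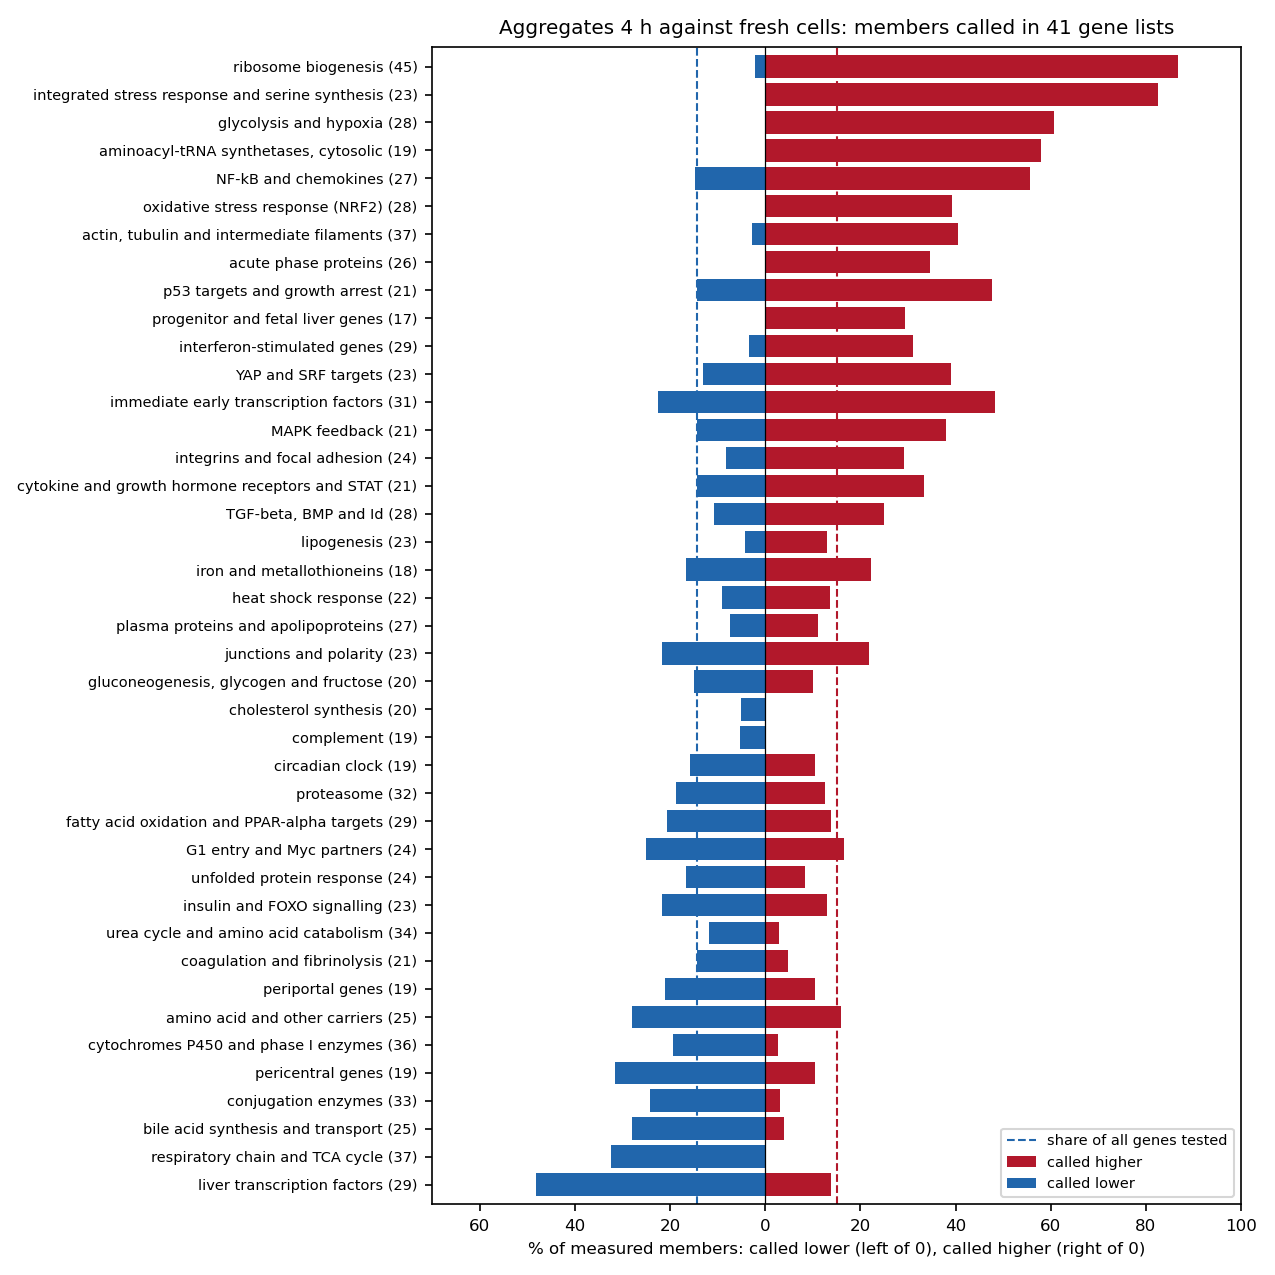
Percentage of the measured members of each of 41 gene lists that were called higher (red, right of 0) or lower (blue, left of 0) in aggregates at 4 h against fresh cells, with the number of measured members in brackets and dashed lines at the shares of all genes tested (15.1% higher, 14.4% lower). Ribosome biogenesis and the integrated stress response reach furthest to the right, and liver transcription factors furthest to the left.

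The integrated stress response and the synthesis of serine rose in 19 of 23 measured genes and fell in 0, with a median of 2.49 and array medians of 2.41, 2.44 and 2.58. Psat1, which transfers the amino group in serine synthesis, stood at -0.29, 0 and 0.04 in fresh cells and at 8.7, 8.43 and 9.05 in aggregates, a rise of 8.81 ± 0.25 (adjusted p = 5.31e-10). Ddit3, which encodes the stress factor CHOP, stood at -0.1, 0.82 and 0 and at 6.54, 6.73 and 6.67, a rise of 6.41 ± 0.23 (adjusted p = 5.06e-09). In both genes the aggregate arrays lay within 0.7 of each other and far above the fresh ones. Their other probe sets rose less, by 6.29 in Psat1 and 2.945 in Ddit3, and were also called. Mthfd2, the mitochondrial enzyme of one-carbon metabolism, rose by 6.13 ± 0.27. Fgf21, a liver hormone released in fasting and metabolic stress, stood at -0.01, 0 and 0.02 in fresh cells. It stood at 6.01, 7.84 and 4.87 in aggregates and at 1.34, 1.68 and 0.53 in the monolayer at 4 h. The 3 aggregate arrays lay above all of these fresh and monolayer arrays. The rise of Fgf21 was 6.24 ± 0.61 (adjusted p = 1.28e-05). Atf4 itself, named after its values had been seen, rose by 1.86 ± 0.19. Against the monolayer 7 of the 23 genes were higher and 0 lower (all genes tested 5.5% and 0.668%), with a median difference of 0.68. The count was 4 without RWV_4h replicate 1, 3 without RWV_4h replicate 3 and 1 under quantile normalisation. Atf4 lost its call under quantile normalisation.

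Because the members of this list rose together and Atf4 dimers with C/EBP proteins bind a known composite element, promoter windows from RefSeq (GRCm38.p6) were searched for its core. Each window runs from 250 bases before to 50 after the start of a gene, and a window was at hand for 10040 of the genes tested. The core TGATGNAA, on either strand, lay in 5 of 16 windows of called members (31.2%), in 2.24% of the windows of all genes tested and in 3.11% of those of genes called higher. Of the windows of all measured members 6 of 20 held it (30%), so called members did not stand out. The list was made of genes assigned to the response that Atf4 drives. A high share can therefore follow from its membership, and nothing is read from it about these arrays. The other motifs searched on both strands were the E-box CACGTG, the cyclic AMP element TGACGTCA, the AP-1 site TGANTCA and the CArG box; the AP-1 site lay in 2 of the 16 windows (5.23% of those of all genes tested), the E-box in 2 (10.2%) and the cyclic AMP element (3.01%) and the CArG box (1.38%) in 0. The 5 windows are shown with that of Psat1, the member that rose most, which holds no match; capitals mark the core as it reads on the gene's strand, which may be its reverse complement. Psat1 is at chr19:15925010-15925309 (minus strand), Fgf21 at chr7:45615441-45615740 (minus strand), Nupr1 at chr7:126625421-126625720 (minus strand), Trib3 at chr2:152344011-152344310 (minus strand), Chac1 at chr2:119350992-119351291 (plus strand) and Asns at chr6:7693160-7693459 (minus strand), each written 5′ to 3′.
Psat1: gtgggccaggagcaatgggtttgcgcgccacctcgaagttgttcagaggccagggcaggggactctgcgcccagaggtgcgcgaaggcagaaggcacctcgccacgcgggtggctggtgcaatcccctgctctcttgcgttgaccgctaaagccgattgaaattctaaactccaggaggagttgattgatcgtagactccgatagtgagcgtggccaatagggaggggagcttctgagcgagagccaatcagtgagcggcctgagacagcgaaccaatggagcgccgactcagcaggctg
Fgf21: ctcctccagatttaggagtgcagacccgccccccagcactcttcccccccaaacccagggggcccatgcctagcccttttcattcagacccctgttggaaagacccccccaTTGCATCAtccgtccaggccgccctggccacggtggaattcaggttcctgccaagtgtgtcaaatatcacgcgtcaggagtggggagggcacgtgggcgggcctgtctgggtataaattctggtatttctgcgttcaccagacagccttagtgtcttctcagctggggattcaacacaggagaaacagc
Nupr1: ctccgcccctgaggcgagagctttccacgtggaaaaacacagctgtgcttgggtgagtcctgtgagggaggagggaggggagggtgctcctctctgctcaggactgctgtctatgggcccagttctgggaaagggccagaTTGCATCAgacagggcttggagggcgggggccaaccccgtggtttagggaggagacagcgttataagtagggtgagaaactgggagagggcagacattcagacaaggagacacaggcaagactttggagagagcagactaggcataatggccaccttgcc
Trib3: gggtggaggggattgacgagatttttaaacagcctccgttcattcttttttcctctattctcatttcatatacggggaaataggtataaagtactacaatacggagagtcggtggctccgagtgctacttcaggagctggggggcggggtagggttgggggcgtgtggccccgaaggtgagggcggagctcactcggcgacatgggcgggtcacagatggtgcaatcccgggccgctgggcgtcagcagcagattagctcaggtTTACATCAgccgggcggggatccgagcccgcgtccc
Chac1: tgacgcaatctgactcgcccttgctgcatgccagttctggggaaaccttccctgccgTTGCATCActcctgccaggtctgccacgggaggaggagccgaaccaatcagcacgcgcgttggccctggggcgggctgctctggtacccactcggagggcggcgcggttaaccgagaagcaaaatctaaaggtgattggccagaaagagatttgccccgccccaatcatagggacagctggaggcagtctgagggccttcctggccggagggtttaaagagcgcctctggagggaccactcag
Asns: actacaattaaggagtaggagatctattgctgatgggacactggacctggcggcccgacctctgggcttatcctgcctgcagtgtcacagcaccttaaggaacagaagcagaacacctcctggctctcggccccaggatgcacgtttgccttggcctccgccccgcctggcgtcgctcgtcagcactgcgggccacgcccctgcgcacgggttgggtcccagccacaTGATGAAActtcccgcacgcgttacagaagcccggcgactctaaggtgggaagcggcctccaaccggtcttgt
Counted from the start, with negative positions before it, the first base of the core lies at -139 in Fgf21, -110 in Nupr1, -193 in Chac1, -23 in Asns and 14 in Trib3. Fgf21 rose by 6.24, Nupr1 by 5.90, Trib3 by 5.23, Chac1 by 3.86 and Asns by 2.49. A match of letters is a description of the window and shows no binding.

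Genes that build ribosomes rose almost as a body. Of 45 measured members 39 were called higher and 1 lower, with a median of 1.70 (1.03 with the probe set of median spread) and array medians of 1.55, 1.54 and 1.75. Rrp1b, a nucleolar protein of rRNA processing, stood at 0.57, 0 and -0.88 in fresh cells and at 2.78, 3.5 and 3.51 in aggregates, a rise of 3.37 ± 0.32 (adjusted p = 1.03e-05). Tsr1, a maturation factor of the small subunit, stood at 0, 0.21 and -0.27 and 2.92, 3 and 3.24, a rise of 3.07 ± 0.14 (adjusted p = 3.67e-08). Gar1, a component of the box H/ACA particles that modify rRNA, rose by 2.96 ± 0.11, and Noc3l by 3.32 ± 0.44. Imp3 was the gene called lower (-0.51 ± 0.15, adjusted p = 0.0237); the call was lost without RWV_4h replicate 1 (0.0566), without RWV_4h replicate 2 (0.0912) and without t0 replicate 3 (0.0732). Against the monolayer 4 of the 45 members were higher and 0 lower, near the 5.5% and 0.668% of all genes tested (7 higher without t0 replicate 3, 0 under quantile normalisation), with Tsr1 at 0.88 and Gar1 at 0.55, the latter not called in a fit of the 9 fresh and 4 h arrays or with centring on reference genes. The median of the list in the monolayer was 1.01. Imp3 lost its call under quantile normalisation and in a fit of the 9 fresh and 4 h arrays.

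Of the cytosolic aminoacyl-tRNA synthetases, which charge tRNAs with amino acids, 11 of 19 rose and 0 fell, with a median of 0.64. Yars rose by 1.78 ± 0.33, Sars by 1.61 ± 0.13, Gars by 1.52 ± 0.15 and Iars by 1.32 ± 0.19. Myc, a driver of ribosome production named after its values had been seen, stood at 0, -0.74 and 0.4 in fresh cells and at 1.67, 2.07 and 1.73 in aggregates, a rise of 1.94 ± 0.23 (adjusted p = 6.92e-05). The E-box CACGTG, which Myc and related factors bind, lay in 7 of 37 promoter windows of called ribosome genes (18.9%), in 10.2% of all windows of tested genes and in 12.8% of those of genes called higher. Of the windows of all measured ribosome genes 9 of 40 held it (22.5%), so called members did not stand out. The part of Myc in their rise was not tested. Genes of entry into the cell cycle and partners of Myc were mixed, with 4 of 24 higher and 6 lower. Odc1, the first enzyme of polyamine synthesis, rose by 0.85 ± 0.18, and the cell cycle inhibitor genes Cdkn1b (-1.21 ± 0.23) and Rbl2 (-1.67 ± 0.35) fell while Cdkn2b, another inhibitor, rose (2.22 ± 0.51). The count of lower members of that list was 3 without RWV_4h replicate 3. Yars and Iars lost their calls under quantile normalisation, Odc1 under quantile normalisation, in a fit of the 6 arrays alone and under the replicate block in a fit of the 6 arrays alone, and Cdkn1b with the probe set of median spread.

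**Figure D3:**
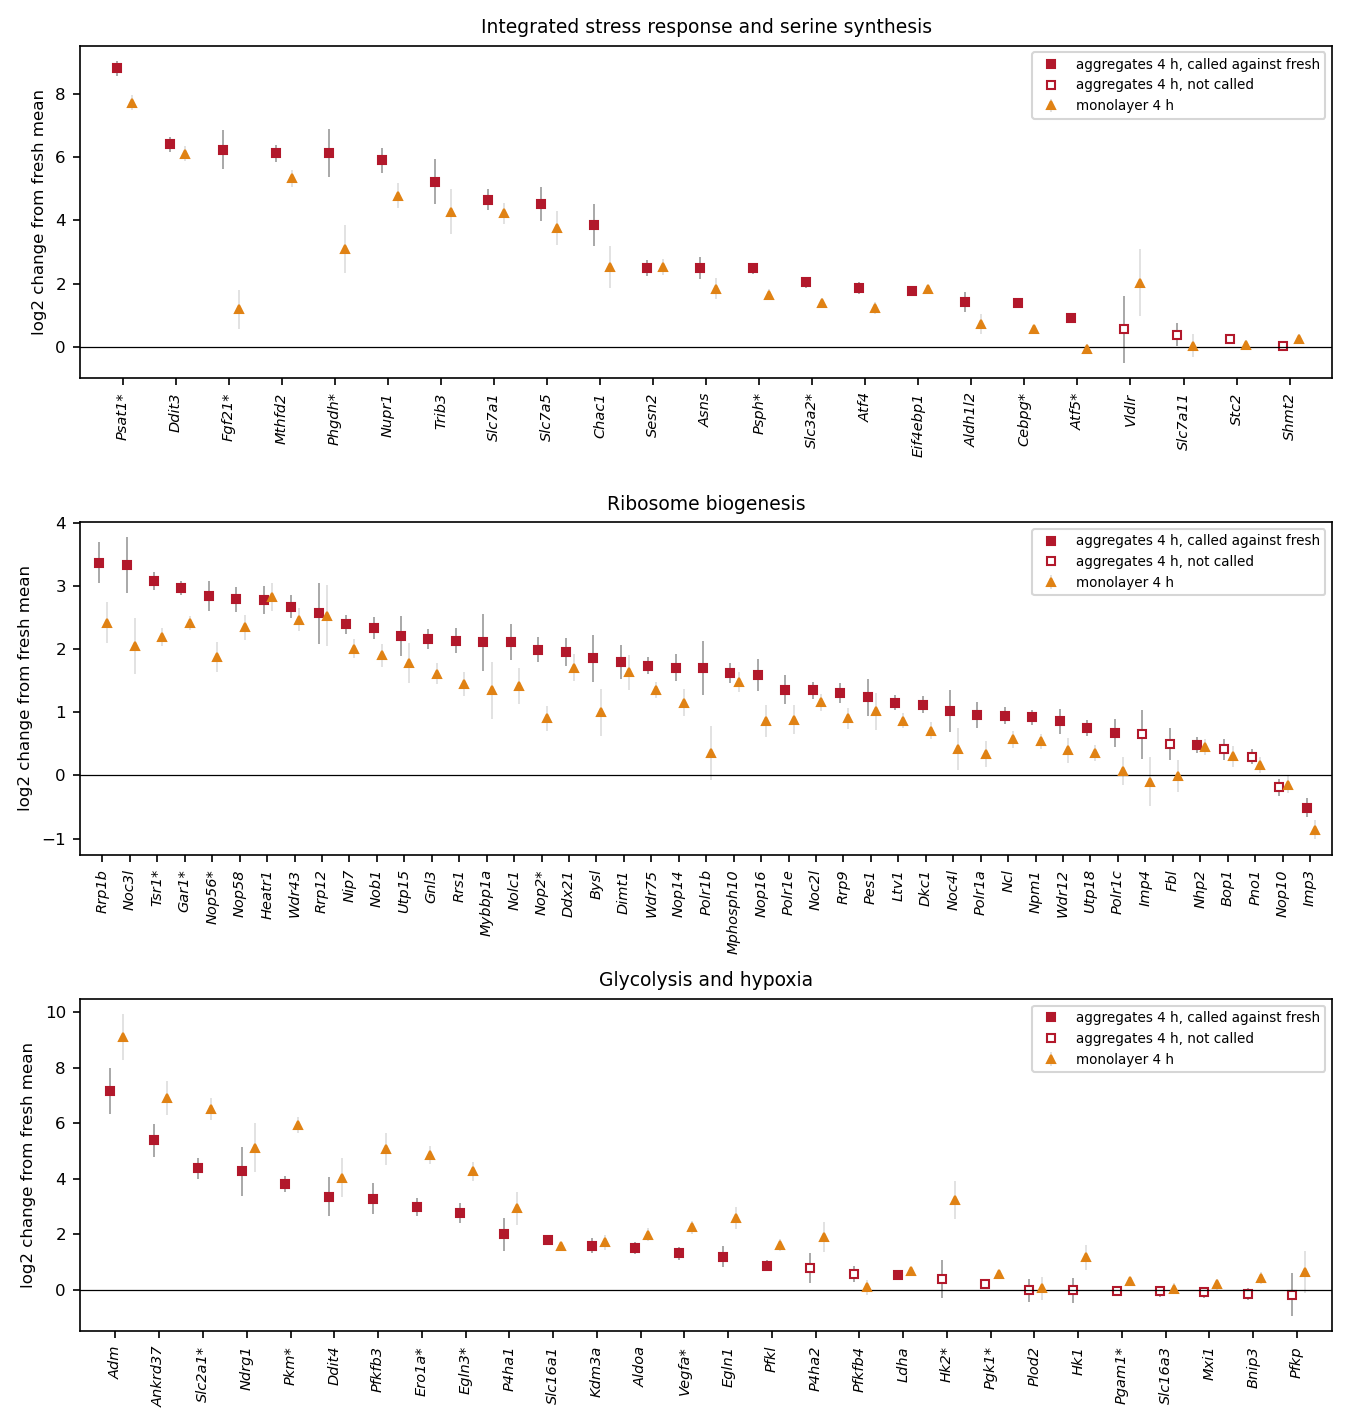
Log2 change from the fresh mean with standard error for every measured member of 3 lists, red squares for aggregates at 4 h (filled where called against fresh cells) and orange triangles for the monolayer at 4 h; an asterisk marks genes called between aggregates and monolayer. In the integrated stress response and ribosome biogenesis most red squares lie above the triangles, as for Fgf21 (6.24 against 1.18), and in glycolysis and hypoxia most lie below, as for Pkm (3.80 against 5.94).

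Immediate early transcription factors, which cells transcribe first after a stimulus, had split by 4 h: 15 of 31 were higher, 7 lower and 9 not called. Fos, the partner of Jun in the factor AP-1, stood at 0.47, -0.03 and 0 in fresh arrays, at -3.34, -3.57 and -3.58 in aggregates and at -1.81, -1.99 and -1.31 in the monolayer. Its change of -3.64 ± 0.32 (adjusted p = 5.21e-06) was larger than in the monolayer by -1.79 (adjusted p = 0.00747), and the 3 groups did not overlap. The orphan nuclear receptor gene Nr4a1 changed by -3.40 ± 0.60, Ier2 by -2.85 ± 0.20 and Zfp36, which destabilises cytokine mRNAs, by -1.83 ± 0.21. Egr1 and Jun, named after their values had been seen, changed by -1.78 ± 0.39 and -1.05 ± 0.17. The opposite group held Fosl1, a later member of the Fos family, at -0.01, 0 and 0.02 in fresh cells and 5.43, 5.41 and 6.98 in aggregates (5.94 ± 0.40), Maff (5.26 ± 0.69) and Klf4 (4.34 ± 0.38). At 24 h 4 members were higher than at 4 h and 12 lower, against 26.4% higher and 15.1% lower among all genes tested. Jun lost its call under quantile normalisation and with the probe set of median spread, and Klf4 with the probe set of median spread.

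Feedback genes of MAP kinase signalling had 8 of 21 members higher and 3 lower. The MAP kinase phosphatase genes Dusp10 and Dusp5 rose by 7.004 ± 0.26 and 4.05 ± 0.20, and Dusp14 by 4.55 ± 0.41. Dusp10 stood at 6.31, 7.12 and 6.97 in aggregates. The growth factor gene Hbegf rose by 4.16 ± 0.30, less than in the monolayer (-1.88, adjusted p = 0.00404, a difference not called in a fit of the 9 fresh and 4 h arrays or under quantile normalisation), and the receptor gene Erbb3 fell (-2.32 ± 0.32). The number of lower members was 1 without RWV_4h replicate 3 or without t0 replicate 3. Hbegf lost its call with the probe set of median spread.

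Targets of NF-kB and chemokines rose in 15 of 27 measured genes and fell in 4, with a median of 1.55 (0.40 with the probe set of median spread). Besides Il1rn and Cd14 the adhesion receptor Icam1 rose by 5.24 ± 0.62 and the receptor of bacterial lipoproteins Tlr2 by 4.94 ± 0.68. Nfkbiz, a nuclear co-factor of NF-kB, stood at 0, -1.4 and 0.25 in fresh cells and -4.22, -4.24 and -4.18 in aggregates (-3.83 ± 0.47, adjusted p = 7.95e-05, 2 of 3 probe sets), and the chemokine Cxcl1 at 0.27, -1.3 and 0 and -3.52, -3.32 and -3.53 (-3.11 ± 0.62). In both genes all aggregate arrays lay below all fresh arrays. Nfkbia, the inhibitor that NF-kB induces, changed by -1.26 ± 0.31 with 1 of 5 probe sets called, and Tnfaip2 by -2.27 ± 0.52. No member was called against the monolayer in limma. At 24 h 2 members were higher and 11 lower than at 4 h (all genes 26.4% and 15.1%), Il1rn among the latter (-5.86). Nfkbia lost its call under quantile normalisation, with the probe set of median spread, in a fit of the 6 arrays alone and under the replicate block in a fit of the 6 arrays alone, and Tnfaip2 under quantile normalisation, with the probe set of median spread and without probe sets of shared sequence.

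Acute phase proteins are secreted by the liver in inflammation. Their list, which also holds genes of membrane proteins such as Steap4 and Il1r1, rose in 9 of 26 genes and fell in 0. Steap4, a metalloreductase, rose by 3.76 ± 0.49, Lcn2 (lipocalin 2) by 3.46 ± 0.45, Saa2 (serum amyloid A2) by 2.93 ± 0.52 and the receptor gene Il1r1 by 2.87 ± 0.32. Under quantile normalisation 1 member was called higher, and without probe sets of shared sequence 5. Of the cytokine and growth hormone receptors with STAT factors 7 of 21 were higher and 3 lower. Stat5a rose by 2.27 ± 0.35 and Il6st, the shared receptor chain of the interleukin-6 family, by 1.54 ± 0.20. Socs3, the feedback inhibitor of that family, stood at 0.49, -1.52 and 0 in fresh cells and -3.53, -3.26 and -3.76 in aggregates (-3.18 ± 0.52, adjusted p = 0.000644), and Igfals, the growth hormone target that binds insulin-like growth factors, changed by -2.15 ± 0.18. Stat3 and Socs2 had probe sets called in opposite directions and are uncertain. Interferon-stimulated genes had 9 of 29 higher and 1 lower (median 0.70, or 0.43 with the probe set of median spread), with Gbp2 at 5.82 ± 0.70, Isg20 at 4.16 ± 0.27 and Oasl1 at 3.15 ± 0.37; without t0 replicate 2 the count of higher members was 5. Lcn2 and Il1r1 lost their calls under quantile normalisation, Saa2 under quantile normalisation and under the replicate block in a fit of the 6 arrays alone, and Il6st with the probe set of median spread.

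**Figure D4:**
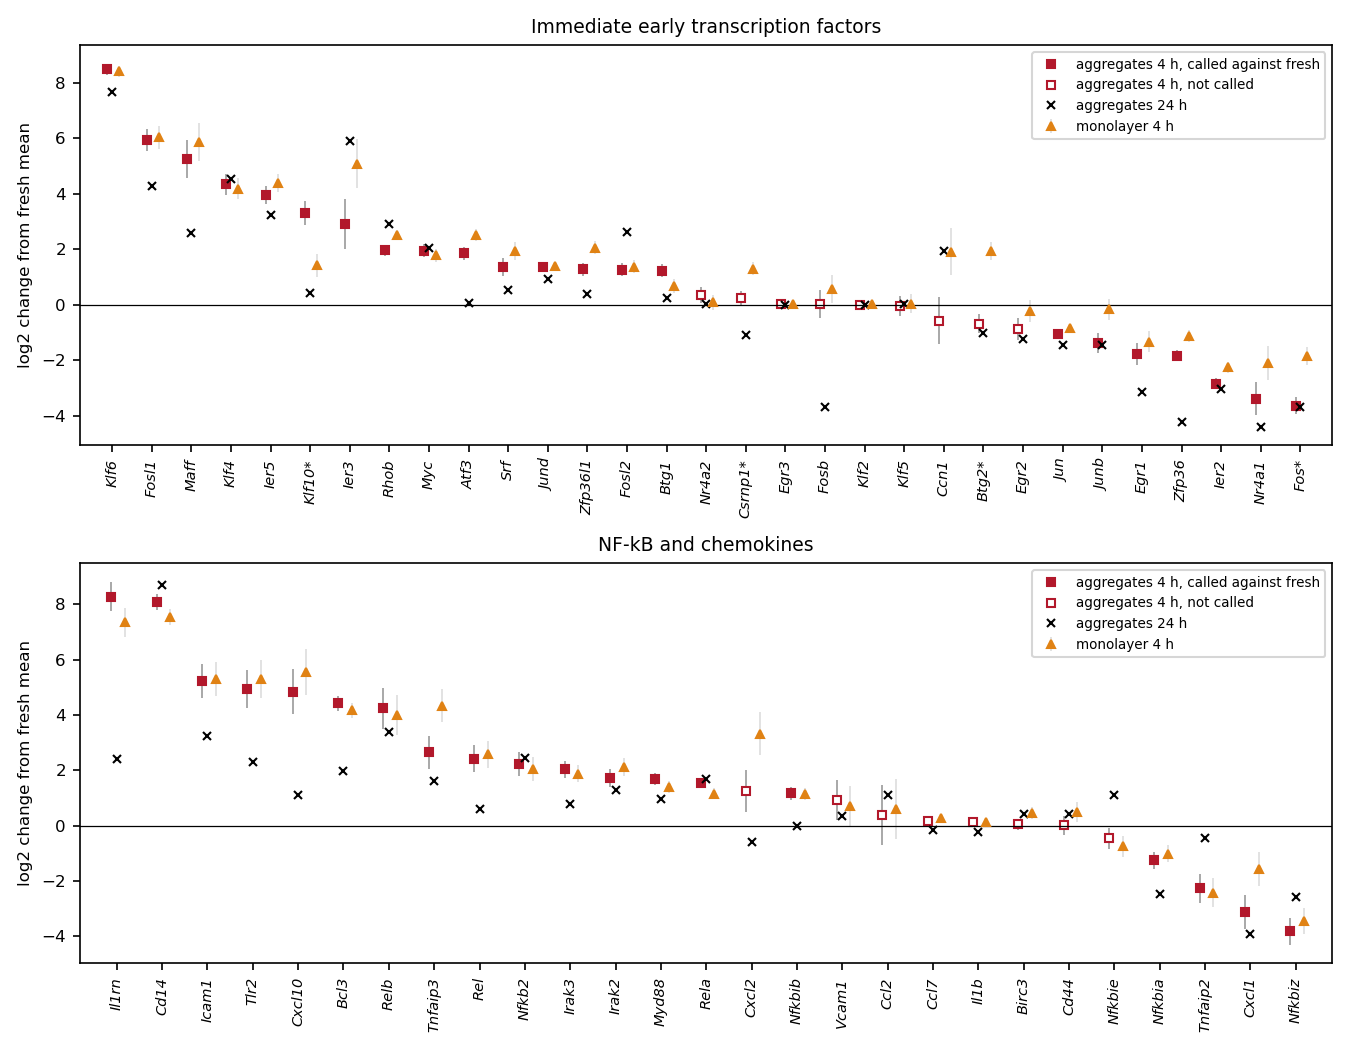
Log2 change from the fresh mean with standard error for the measured immediate early transcription factors and NF-kB targets with chemokines, red squares for aggregates at 4 h (filled where called), orange triangles for the monolayer at 4 h and black crosses for aggregates at 24 h. Both lists hold genes above and below 0 at 4 h, from Klf6 at 8.49 to Fos at -3.64 and from Il1rn at 8.29 to Nfkbiz at -3.83.

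Genes of glycolysis and of the response to hypoxia rose in 17 of 28 cases and fell in 0. Slc2a1, the glucose transporter GLUT1, stood at 0.23, 0 and -0.38 in fresh cells, at 3.93, 4.33 and 4.69 in aggregates and at 6.35, 6.54 and 6.45 in the monolayer. Its rise was 4.37 ± 0.38 (adjusted p = 5.71e-06), with all 3 probe sets called. Pkm, the pyruvate kinase of most tissues other than liver, stood at -0.13, 0.19 and 0, 3.7, 3.68 and 4.09 and 6.22, 5.42 and 6.25 in the same order, a rise of 3.80 ± 0.30. The aggregates of both genes lay between the fresh and the monolayer arrays without overlap. Ankrd37 rose by 5.38 ± 0.60 and Ndrg1 by 4.26 ± 0.88; in t0 replicate 3 these genes stood at 2.05 and 4.26, apart from the other fresh arrays. Against the monolayer 8 members were lower and 0 higher (all genes tested 0.668% lower and 5.5% higher), with 3 lower without RWV_4h replicate 1 or 2, 5 without RWV_4h replicate 3 and 3 under quantile normalisation. The medians against fresh cells were 1.26 in aggregates (0.79 with the probe set of median spread) and 1.95 in the monolayer. At 24 h Pkm was higher than at 4 h by 4.08 (adjusted p = 6.04e-07). Ankrd37 lost its call under quantile normalisation, and Ndrg1 under quantile normalisation, in a fit of the 6 arrays alone and under the replicate block in a fit of the 6 arrays alone.

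Lipogenesis had 3 of 23 genes higher and 1 lower, near the shares of all genes. Scd1, the stearoyl-CoA desaturase, rose by 2.01 ± 0.26, and Acly, which supplies cytosolic acetyl-CoA, stood at 0, 0.59 and -0.11 in fresh cells and 1.08, 2.37 and 2 in aggregates (1.65 ± 0.29) while the monolayer stayed at -0.04, 0.5 and 0.04. Its lower count was 0 without RWV_4h replicate 1 or t0 replicate 1 and 2 without RWV_4h replicate 2 or TCD_4h replicate 2. Cholesterol synthesis had 0 of 20 higher and 1 lower, the latter being 0 without any of the 3 RWV_4h replicates or t0 replicates 2 and 3 and the former 1 without t0 replicate 1 or 2. Of insulin and FOXO signalling 3 of 23 were higher and 5 lower (34.8% called against 29.6% of all genes). Pik3r1, the regulatory subunit of phosphoinositide 3-kinase, rose by 2.56 ± 0.26, and Foxo3 and the kinase gene Pdk2 changed by -1.997 ± 0.29 and -1.08 ± 0.19. The insulin receptor substrate Irs1 changed by -2.28 ± 0.58 in aggregates and by -5.22 in the monolayer (adjusted p of the difference = 0.0119). Txnip, which restrains glucose uptake, differed from the monolayer by 4.14 but did not pass the test against fresh cells (1.60 ± 0.75, adjusted p = 0.138). Both differences from the monolayer lost their calls in a fit of the 9 fresh and 4 h arrays and under quantile normalisation. Acly lost its call under quantile normalisation and with the probe set of median spread, Irs1 under quantile normalisation, and Scd1 with the probe set of median spread.

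Stress genes other than those of the integrated stress response were counted by pathway. The oxidative stress response under the factor NRF2 rose in 11 of 28 genes and fell in 0 (2 lower without TCD_4h replicate 2). Hmox1, the heme oxygenase, stood at 0.74, -0.17 and 0 in fresh cells and 7.13, 7.07 and 6.8 in aggregates (6.81 ± 0.34, adjusted p = 6.84e-08). Sqstm1, an adaptor of selective autophagy, rose by 6.42 ± 0.29, Srxn1, which repairs peroxiredoxins, by 5.89 ± 0.20, and the carbonyl reductase gene Cbr3 by 4.28 ± 0.54. By the probe sets used here, all fresh arrays of the first 3 genes lay at least 4 log2 units below all aggregate arrays. The other probe set of Sqstm1 rose by 2.495, which was also called. Targets of p53 rose in 10 of 21 genes and fell in 3 (median 1.18, or 0.63 without t0 replicate 2). Cdkn1a, the cell cycle inhibitor p21, rose by 6.41 ± 1.15, with 5.33 in t0 replicate 2 against -1.01 and 0 in the other fresh arrays and 7.48, 8.17 and 7.91 in aggregates. Ccng2 rose by 3.45 ± 0.30 and the DNA polymerase gene Polk by 3.02 ± 0.25, whereas Ccng1 (-1.19 ± 0.17), Sesn1 (-1.50 ± 0.23) and Gadd45g (-1.56 ± 0.25) fell. Cdkn1a lost its call under quantile normalisation and under the replicate block in a fit of the 6 arrays alone, and Gadd45g under the replicate block in a fit of the 6 arrays alone.

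The unfolded protein response had 2 of 24 genes higher and 4 lower. Of its genes 25% were called, of the heat shock response 22.7% and of the proteasome 31.2%. These shares lay near or below the 29.6% of all genes tested. Ern1, which encodes the sensor IRE1, rose by 2.59 ± 0.16 with all 4 probe sets called, and Ppp1r15a, which restores eIF2 after stress, rose by 3.14 ± 0.26; Herpud1, a component of the degradation machinery of the endoplasmic reticulum, fell by its 2 probe sets (-1.98 ± 0.27). The count of lower members was 1 without RWV_4h replicate 3 or t0 replicate 1, 2 without RWV_4h replicate 1 or t0 replicate 2 and 7 without t0 replicate 3. The heat shock response had 3 of 22 higher and 2 lower, with the small heat shock protein gene Hspb8 at 2.83 ± 0.20; the lower members numbered 6 without t0 replicate 3 and 1 without RWV_4h replicate 3 or t0 replicate 1 or 2, and without t0 replicate 2 the higher ones numbered 5. The proteasome had 4 of 32 higher and 6 lower, all by less than 1, with Psmd8 at 0.41 ± 0.080 and Psmd1 at -0.68 ± 0.090. Its lower count was 1, 2 or 3 without RWV_4h replicate 1, 2 or 3 or t0 replicate 1 or 3, and its higher count was 1 without t0 replicate 1 and 2 without RWV_4h replicate 2 or t0 replicate 3. At 24 h 28 of the 32 proteasome genes were higher than at 4 h and 0 lower (against 26.4% higher among all genes), and 16 of 22 heat shock genes were higher and 1 lower. With centring on reference genes these counts were 11 and 3 for the proteasome and 12 and 3 for heat shock genes, and under quantile normalisation 9 and 2 were higher. Psmd8 lost its call under quantile normalisation, with centring on reference genes and under the replicate block in a fit of the 6 arrays alone.

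Liver transcription factors were the list with the largest share of decreases, 14 of 29 lower and 4 higher, with a median of -0.64. Klf15, a factor of fasting metabolism, stood at 0, -0.08 and 0.1 in fresh cells and -3.39, -4.16 and -3.2 in aggregates (-3.59 ± 0.44, adjusted p = 7.39e-05). Ppara, the nuclear receptor of fatty acid oxidation, stood at 0.54, -0.49 and 0 and -2.13, -3.63 and -1.77 (-2.53 ± 0.51), with all 3 probe sets called lower. Neither gene overlapped between the groups. Cebpa changed by -0.77 ± 0.18 (adjusted p = 0.0058), from 0, 0.06 and -0.19 to -0.66, -1.12 and -0.65. Hnf4a did not pass the test (0.35 ± 0.23, adjusted p = 0.289), with 0.25, 0.06 and 0.8 in single aggregate arrays, but was lower at 24 h than at 4 h (-1.36, adjusted p = 0.000413). Foxa3 rose by 1.66 ± 0.26. Gata6, a factor of endoderm development, stood at 0.19, 0 and -0.03 in fresh cells and 6.23, 5.46 and 7.06 in aggregates (6.20 ± 0.51, adjusted p = 3.38e-06). The number of lower members was 9 without RWV_4h replicate 1 and that of higher members was 2 without RWV_4h replicate 3. Clock genes had 2 of 19 higher and 3 lower, with the repressor gene Bhlhe40 at 1.77 ± 0.13; without t0 replicate 2 these counts were 6 and 0, the higher count was 1 without RWV_4h replicate 1 or t0 replicate 1 or 3, and the lower count was 1 without RWV_4h replicate 3. Foxa3 lost its call under quantile normalisation and under the replicate block in a fit of the 6 arrays alone, and Cebpa under the replicate block in a fit of the 6 arrays alone.

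**Figure D5:**
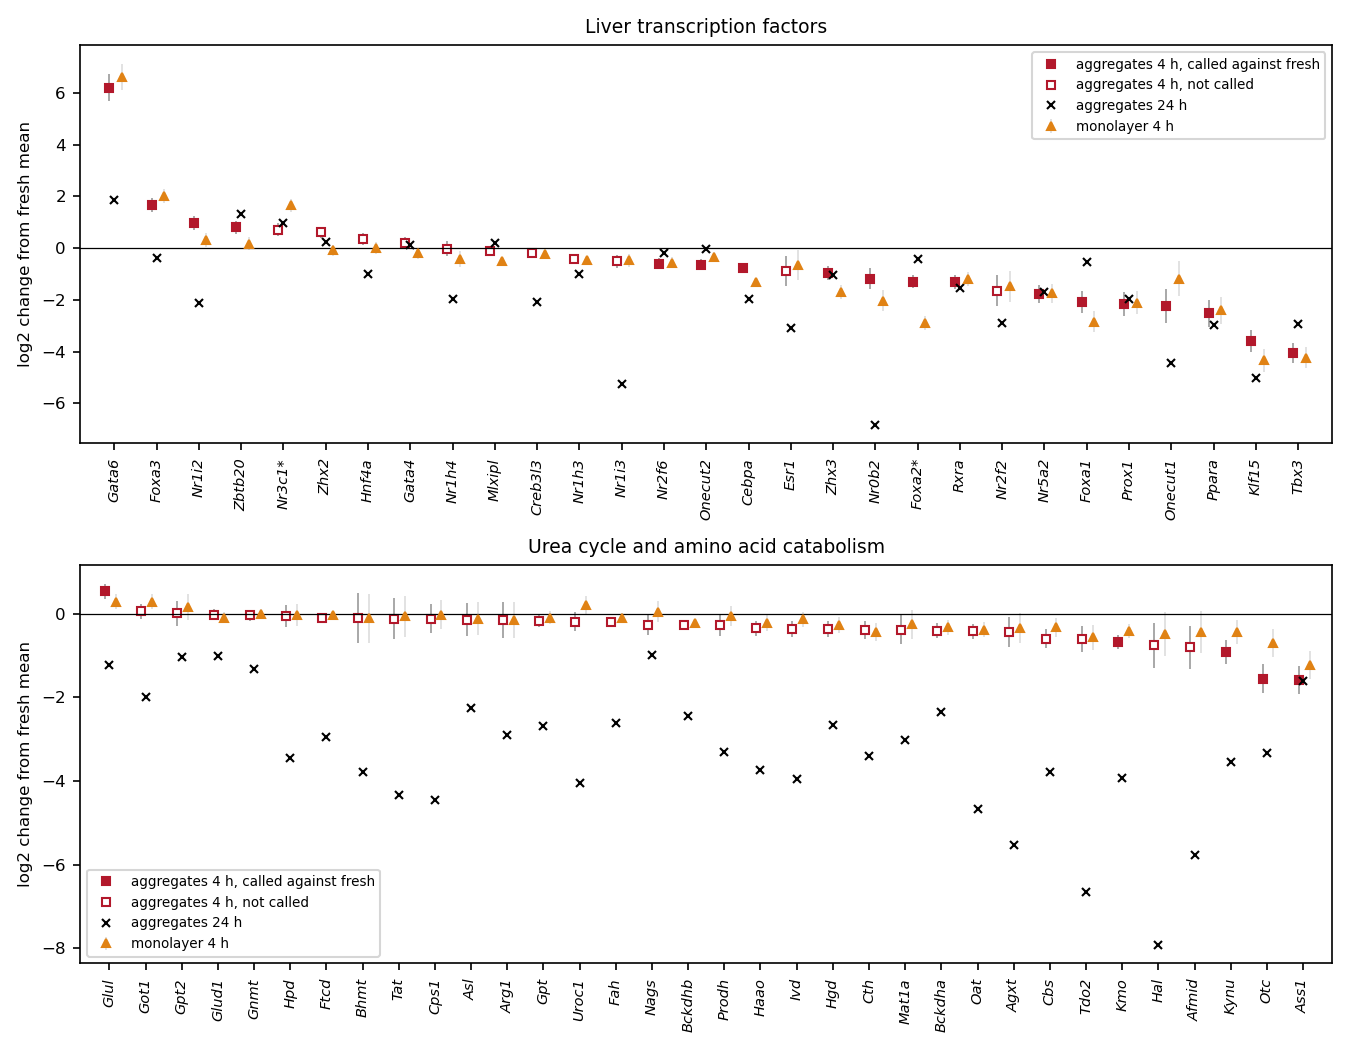
Log2 change from the fresh mean with standard error for the measured liver transcription factors and the genes of the urea cycle and amino acid catabolism, red squares for aggregates at 4 h (filled where called), orange triangles for the monolayer at 4 h and black crosses for aggregates at 24 h. Transcription factors spread from Gata6 at 6.20 to Tbx3 at -4.05 at 4 h, whereas most amino acid genes lie near 0 at 4 h and far below it at 24 h.

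Of the urea cycle and amino acid catabolism 1 of 34 genes was called higher and 4 lower at 4 h, 14.7% against 29.6% of all genes, with a median of -0.28 (-0.16 without t0 replicate 2, -0.49 with centring on reference genes); at 24 h 33 of the 34 were lower than at 4 h and 0 higher, against 15.1% of all genes lower, with a median difference of -2.80. Otc and Ass1, enzymes of the urea cycle, were the members that fell furthest at 4 h (-1.55 ± 0.34 and -1.58 ± 0.34), and Kmo of tryptophan breakdown changed by -0.68 ± 0.16. Ass1 stood at -1.26, 0 and 0.2 in fresh cells and -1.96, -1.92 and -1.93 in aggregates. The gene called higher, Glul (glutamine synthetase), was at 0.54 ± 0.18 (adjusted p = 0.042) and lost its call under the replicate block (0.0548) and without any of RWV_4h replicates 1 (0.117), 2 (0.0952) and 3 (0.0636) or t0 replicates 2 (0.0987) and 3 (0.129). The other probe set of Glul rose by 1.05 and was called when probe sets were tested on their own in limma (adjusted p = 0.00309). Under the replicate block 7 members were lower, and with centring on reference genes 14. Albumin (Alb) stood at 0, 0.05 and -0.02 and 0.12, 0.11 and 0.04 and did not pass the test (0.081 ± 0.075, adjusted p = 0.479). Ass1 lost its call under quantile normalisation and under the replicate block in a fit of the 6 arrays alone, Kmo under quantile normalisation, Glul under quantile normalisation, with centring on reference genes and without the background filter, and Otc with the probe set of median spread.

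Cytochromes P450 and phase I enzymes had 1 of 36 higher and 7 lower, and conjugation enzymes 1 of 33 higher and 8 lower, the latter being 4 without RWV_4h replicate 2 or 3 or t0 replicate 2 or 3 and 5 without RWV_4h replicate 1. Under the replicate block the lower counts of these 2 lists were 14 and 13, and with centring on reference genes 15 and 15. Cyp3a11, the main drug-metabolising P450 of the mouse, did not pass the test (0.066 ± 0.11, adjusted p = 0.725), and Cyp2u1 (-1.73 ± 0.24) and Cyp4v3 (-0.61 ± 0.10) fell. The genes that rose in these lists were Tiparp (3.81 ± 0.32), a target of the aryl hydrocarbon receptor, and the estrogen sulfotransferase Sult1e1 (3.78 ± 0.48), while the receptor gene Ahr changed by -0.98 ± 0.15. Bile acid genes had 1 of 25 higher and 7 lower, the latter being 4 without RWV_4h replicate 2 or t0 replicate 1. Cyp7a1, the rate-limiting enzyme of bile acid synthesis, stood at 0, 1.11 and -0.56 in fresh cells and -3.1, -2.07 and -4.1 in aggregates (-3.28 ± 0.50, adjusted p = 0.000424), and was at -5.15 at 24 h against 4 h. The other probe set of Cyp7a1 fell further at 4 h (-6.03) and was also called. The bile acid exporter subunit Slc51b rose by 1.86 ± 0.26. At 24 h against 4 h 28 P450 and phase I genes, 22 conjugation enzymes and 20 bile acid genes were lower (all genes 15.1%), and under quantile normalisation 22, 13 and 12. Cyp2u1 lost its call with the probe set of median spread.

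The respiratory chain and the tricarboxylic acid cycle had 0 of 37 genes higher and 12 lower, with a median of -0.21 (-0.42 with centring on reference genes) and array medians of -0.24, -0.20 and -0.29. Ndufs1 of complex I changed by -0.54 ± 0.12 and Idh3a of the cycle by -1.77 ± 0.38. Without RWV_4h replicate 3 the lower members numbered 7, under quantile normalisation 1 and with centring on reference genes 28. Fatty acid oxidation with targets of PPAR-alpha had 4 of 29 higher and 6 lower (3 lower without RWV_4h replicate 3). Pdk4, which shuts pyruvate out of the cycle, rose by 4.68 ± 0.36 and the lipid droplet protein gene Plin2 by 1.49 ± 0.15, while Cpt2 (-1.03 ± 0.18) and Hadhb (-0.90 ± 0.18), enzymes of mitochondrial oxidation, fell. Gluconeogenesis, glycogen and fructose genes had 2 of 20 higher and 3 lower, with Pgm2 at 3.17 ± 0.23, the glycogen phosphorylase Pygl at -0.48 ± 0.078 and Pck1, the rate-limiting enzyme of gluconeogenesis, at -1.70 ± 0.35. The higher count was 1 without RWV_4h replicate 1 or 3 or t0 replicate 2 and 4 under the replicate block. Idh3a lost its call under quantile normalisation, in a fit of the 6 arrays alone and under the replicate block in a fit of the 6 arrays alone, and Pck1 under quantile normalisation.

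Plasma proteins and apolipoproteins had 3 of 27 higher and 2 lower, with Serpina7, which carries thyroid hormone, at 3.29 ± 0.60 and Apoa4 at 2.25 ± 0.52; the lower count was 0 without RWV_4h replicate 3 or t0 replicate 2 and 1 without RWV_4h replicate 1 or 2 or t0 replicate 3, and 4 under the replicate block. Coagulation and fibrinolysis had 1 of 21 higher and 3 lower (1 lower without RWV_4h replicate 2). The gene that rose was F3, tissue factor, at 0.85, -1.39 and 0 in fresh cells, 1.51, 1.86 and 3.23 in aggregates and 5.01, 4.29 and 5.55 in the monolayer (2.38 ± 0.56; difference from the monolayer -2.75, adjusted p = 0.0135). That difference was not called without RWV_4h replicate 1 or 2, in a fit of the 9 fresh and 4 h arrays or under quantile normalisation. Complement had 0 of 19 higher and 1 lower, Masp2 at -0.53 ± 0.12; the lower count was 2 without t0 replicate 2 and 3 under the replicate block. With centring on reference genes 13 coagulation and 11 complement genes were lower. Carriers of amino acids and other solutes had 4 of 25 higher and 7 lower, with the amino acid carriers Slc1a4 (3.84 ± 0.27) and Slc43a1 (2.93 ± 0.38) up and the glutamate carrier Slc1a2 (-1.54 ± 0.37) down. F3 lost its call under quantile normalisation, in a fit of the 6 arrays alone and under the replicate block in a fit of the 6 arrays alone, Masp2 under quantile normalisation and with the probe set of median spread, Slc1a2 under quantile normalisation, with the probe set of median spread and under the replicate block in a fit of the 6 arrays alone, and Serpina7 and Apoa4 under the replicate block in a fit of the 6 arrays alone.

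More structural genes rose than fell. Of actin, tubulin and intermediate filament genes 15 of 37 were higher and 1 lower; the higher count was 9 without probe sets of shared sequence and 6 under quantile normalisation. The tropomyosin gene Tpm4 stood at 3.38, 3.69 and 3.67 in aggregates (3.48 ± 0.19) and the non-muscle myosin gene Myh9 rose by 2.98 ± 0.29. Actb rose by 0.69 ± 0.10 with 1 of 2 probe sets called, and Vim, the mesenchymal intermediate filament, did not pass the test (1.52 ± 0.57, adjusted p = 0.066), with 0.45 in RWV_4h replicate 2 and 1.74 and 1.90 in the other aggregate arrays. Vim was called under the replicate block (adjusted p = 0.0116). Another Vim probe set rose by 1.86 and was called when probe sets were tested on their own in limma (adjusted p = 0.0201). A further Vim probe set (0.93) was not called. Integrins and focal adhesion genes had 7 of 24 higher and 2 lower, with Itga6 at 2.78 ± 0.40, vinculin (Vcl) at 1.94 ± 0.14 and zyxin (Zyx) at 2.45 ± 0.33; the lower count was 1 without RWV_4h replicate 1 or 2 or t0 replicate 1 or 2. Targets of YAP and SRF had 9 of 23 higher and 3 lower, with the actin-binding gene Tagln2 at 3.90 ± 0.71 up and Nuak2 (-2.67 ± 0.38) and Dlc1 (-2.09 ± 0.26) down. Myh9 and Tagln2 lost their calls under quantile normalisation, Actb under quantile normalisation, with the probe set of median spread and without probe sets of shared sequence, and Zyx with the probe set of median spread and under the replicate block in a fit of the 6 arrays alone.

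Genes of the TGF-beta and BMP pathways had 7 of 28 higher and 3 lower. Among ligands and their antagonists, Inhba, a subunit of activin A, rose by 4.35 ± 0.41 and Fst (follistatin, which binds activin) by 4.64 ± 0.48. Inhba stood at -0.01, 0 and 0.02 in fresh cells and at 4.21, 4.25 and 4.61 in aggregates. The receptor gene Tgfbr2 rose by 2.23 ± 0.39 and the co-repressor gene Tgif1 by 3.21 ± 0.19, while Id2, described above, fell. Junction and polarity genes had 5 of 23 higher and 5 lower (43.5% called against 29.6% of all genes). Desmoplakin (Dsp, 1.27 ± 0.21) and E-cadherin (Cdh1, 0.85 ± 0.19) rose and the tight junction gene Cldn3 fell (-1.43 ± 0.18, all 4 probe sets); the lower count was between 1 (without t0 replicate 3) and 3 when any RWV_4h or t0 array was left out, with 2 without RWV_4h replicate 1. Progenitor and fetal liver genes had 5 of 17 higher and 0 lower (1 without t0 replicate 2), Lgals3, Anxa2, the TWEAK receptor Tnfrsf12a (6.78 ± 0.36) and Sox9 (5.61 ± 0.69) among them. Tgfbr2, Dsp, Cdh1 and Sox9 lost their calls under quantile normalisation.

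Iron and metallothionein genes had 4 of 18 higher and 3 lower. The zinc exporter gene Slc30a1 rose by 2.49 ± 0.28 and Mt2 by 2.22 ± 0.31, whereas Ireb2, an iron sensor, and Hjv, a co-receptor that drives hepcidin, changed by -1.58 ± 0.20 and -2.61 ± 0.59. Of genes that are active around the central vein 2 of 19 were higher and 6 lower, and of genes active around the portal vein 2 of 19 and 4. The former count of higher genes was 1 without RWV_4h replicate 1, 2 or 3 or t0 replicate 2 or 3. Mt2 lost its call under quantile normalisation.

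Marker genes of other liver cells were counted beside these lists, since a bulk sample cannot tell fewer cells of a type from less RNA per cell. Hepatocyte markers had 1 of 11 higher (Apob, not called without RWV_4h replicate 1 or 3 or t0 replicate 2 or 3) and 1 lower (Ass1), and their mean lay between -0.10 and -0.06 in the aggregates and between -0.08 and 0.08 in fresh cells. Of 14 Kupffer cell and macrophage markers 1 was higher, Cd68, and 0 were lower (1 without t0 replicate 3). The list's mean lay between 0.02 and 0.51 in aggregates and between -0.28 and 0.27 in fresh cells. Cd68 alone (7.22) weighs heavily on this mean, and the median change of the list was -0.16. The defining macrophage markers Clec4f (-0.13), Adgre1 (-0.29), Csf1r (-0.96) and C1qa (0.11) did not pass the test. Sinusoidal endothelial markers had 0 of 11 higher (1 without RWV_4h replicate 3) and 3 lower, with a mean between -0.52 and -0.31 in aggregates and between -0.08 and 0.48 in fresh cells. Their median change was -0.05. Dnase1l3 stood at -0.2, 0 and 0.62 in fresh cells and -2.03, -2 and -1.61 in aggregates (-2.02 ± 0.17), and Clec4g changed by -3.42 ± 0.79, while Stab2 (0.45), Stab1 (-0.053) and Lyve1 (0.41) did not pass. Of 8 stellate cell and fibroblast markers 1 was lower (Tagln, -0.68 ± 0.10), with list means between -0.15 and -0.04 in aggregates and between 0 and 0.07 in fresh cells. Cholangiocyte markers had 1 of 4 higher, Sox9, with list means between 1.47 and 1.68 in aggregates and between -0.15 and 0.46 in fresh cells, with Krt19 (-0.047) and Epcam (0.44) not called. Sox9 (5.61) weighs heavily on these means, and the median change of the list was 0.20. Neutrophil (2 measured), lymphocyte (2) and erythroid markers (3) had no call in limma, and 0 of these 7 genes had an unadjusted p under 0.05; without t0 replicate 3 an erythroid marker was called lower. Most listed markers of these last 3 types were left out with the background probe sets (2 of 11 neutrophil and 2 of 14 lymphocyte markers were measured). The part of these cells in the results was not tested. Tagln lost its call under quantile normalisation, and Clec4g in a fit of the 6 arrays alone.

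The aggregates and the monolayer at 4 h share the fresh arrays as their reference, so the 2 cultures were compared with each other directly. There 766 genes were called (6.17% of those tested), 683 higher in aggregates (5.5%) and 83 lower (0.668%). With centring on reference genes 480 were higher and 160 lower, and without the background filter 1332 and 5596, so the split between the directions depends on these choices. The count rested on single arrays: it was 497, 458 and 390 without RWV_4h replicates 1, 2 and 3 and 506 without TCD_4h replicate 2. Under quantile normalisation it was 104, and under the replicate block 860 (763 higher, 97 lower). Among genes called against fresh cells as well, the largest differences upwards after Fgf21 were in 2310034O05Rik (3.43), the non-coding gene Gas5 (3.36), Samd4 (3.26) and Tmem43 (3.20). Gas5 was not called there with the probe set of median spread or in a fit of the 9 fresh and 4 h arrays, Samd4 with the former, and Gas5, Samd4 and Tmem43 under quantile normalisation. Downwards they were in the chemokine scavenger Ackr3 (-3.30), F3, Tmsb10 (not called without probe sets of shared sequence), Pkm and Slc2a1 (not called under quantile normalisation). Ackr3 stood at 1.77, 1.94 and 1.64 in aggregates and 4.97, 4.54 and 5.76 in the monolayer, and Gas5 at 1.93, 2 and 3.04 and -1.25, -2.61 and 0.74. Against fresh cells Ackr3 rose by 1.77 ± 0.32 and Gas5 by 2.12 ± 0.63 in aggregates. The call of Gas5 was lost without RWV_4h replicate 3 (adjusted p = 0.0932), t0 replicate 1 (0.0657) or t0 replicate 2 (0.0642). Gas5 lost its call under quantile normalisation, without probe sets of shared sequence and in a fit of the 9 fresh and 4 h arrays.

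The aggregates went on changing. Between 4 h and 24 h 5164 genes were called (41.6% of those tested), 3282 higher (26.4%) and 1882 lower (15.1%). With centring on reference genes 1554 were higher and 6164 lower, and under quantile normalisation 1741 genes were called. This comparison shares the RWV_4h arrays with the one against fresh cells. Some of the genes that had risen most by 4 h were higher again at 24 h, such as Tmsb10 (4.35), and Anxa2 (3.19), Lgals3 (2.74) and Cd68 (1.57), of which the last 3 were not called under quantile normalisation. Others were lower, such as Il1rn (-5.86), Gata6 (-4.35), Ddit3 (-3.55) and Hmox1 (-2.64). Psat1 (-0.28, adjusted p = 0.416), Sprr1a (0.63, adjusted p = 0.253) and Fgf21 (-0.40, adjusted p = 0.681) did not pass the test between the times; under quantile normalisation Psat1 (-1.66, adjusted p = 0.0146) and Sprr1a (-1.27, adjusted p = 0.0152) were lower at 24 h. In single arrays Il1rn stood at 8.55, 8.36 and 9.12 at 4 h and at 2.94, 2.4 and 3.11 at 24 h, with no overlap.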

How the data were processed

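Gene expression was measured on Affymetrix mouse arrays in 5 groups of 3 biological replicates. The deposited values are log2 signals made by the authors with GCRMA, per the submitters' processing notes; that the fresh median was subtracted was read from the values, whose fresh median is 0 for all 45101 probe sets. The tool's version and settings are not given in the sources used here. Of the probe sets 34945 had 1 gene symbol in the platform annotation (names brought up to date for 34741), 932 had several, 9160 had none and 64 were controls. Probe sets were taken as background and left out where their SD was below 0.5 and their correlation with the array medians of the least variable 20% was over 0.8. Each gene was represented by its remaining probe set with the largest SD over the 15 arrays. limma 3.58.1 (R 4.3.3) was fitted to all 15 arrays, with p-values adjusted by Benjamini-Hochberg over 12423 genes and calls at an adjusted p under 0.05. Since 3 against 3 arrays cannot give an exact permutation p below 0.1, single genes rest on this fit, with 10 residual degrees of freedom.

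Named genes are the 10 largest non-overlapping changes each way, up to 4 called members each way of each list (or the member with the smallest p), 9 fixed genes and the 5 largest non-overlapping differences each way from the monolayer; 4 further genes (Atf4, Egr1, Jun, Myc) were named after their values had been seen. The members and lists were chosen with earlier results of these data known. Arrays with the same replicate number in RWV_4h and t0 deviated together from their group means (correlations 0.274, 0.27 and 0.281), and the number was taken from the labels. Those of RWV_4h and TCD_4h did so more strongly (0.368, 0.493 and 0.522). The main fit leaves this number out. Alternatives covered the filter, the choice of probe set, shared sequence, the arrays fitted, centring on 9 reference genes, quantile normalisation, array weights, robust eBayes, the replicate block and leaving out arrays.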

Additional observations from a re-analysis of the deposited data

Results flagged for a closer look

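Of the 251 named genes 28 differed between aggregates and monolayer at 4 h by the test of that difference in limma (adjusted p below 0.05), 17 higher and 11 lower in aggregates. The named genes include 10 that were chosen for this difference, and 6.17% of all genes tested were called in it, so nothing is read from the count. On the log2 scale the genes of stress, hormone and amino acid responses that were higher in aggregates differed as follows: Fgf21 by 5.06, Cbr3 by 2.61, Polk by 1.14, Psat1 by 1.08, Ern1 by 0.74 and Gars by 0.56. Of metabolic regulation and lipid synthesis, Txnip by 4.14, Irs1 by 2.94, Fasn by 2.02, Acly by 1.65 and Nat2 by 0.60 were higher. Of ribosome production and the remaining genes, 2310034O05Rik by 3.43, Gas5 by 3.36, Samd4 by 3.26, Tmem43 by 3.20, Tsr1 by 0.88 and Gar1 by 0.55 were higher. Lower in aggregates were Cldn14 by -0.83, Slc25a25 by -1.30, Adh6-ps1 by -1.73, Fos by -1.79, Hbegf by -1.88, Slc2a1 by -2.13, Pkm by -2.14, Tmsb10 by -2.37, Vim by -2.69, F3 by -2.75 and Ackr3 by -3.30. The mean changes from fresh cells had opposite signs in Txnip (1.60 in aggregates and -2.54 in the monolayer), Gas5 (2.12 in aggregates and -1.24 in the monolayer), Tmem43 (2.54 in aggregates and -0.66 in the monolayer), Slc25a25 (-1.24 in aggregates and 0.06 in the monolayer) and Fasn (1.44 in aggregates and -0.58 in the monolayer). Not all of these changes can be told from no change. Against fresh cells Txnip was not called in aggregates, and Slc25a25 had hardly moved in the monolayer. The call of Fasn in aggregates was lost in 13 of 19 alternatives. The call against the monolayer was kept in all alternatives other than quantile normalisation by 9 of the 28 genes, and also there by 5: 2310034O05Rik, Ackr3, Fgf21, Fos and Pkm. TCD_4h replicate 2, whose hybridisation controls stood apart at 1.08, took part in all of these differences; its part was not tested beyond the fits without it.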

How the results depend on the processing

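The count of 3671 genes called against fresh cells stayed between 2811 and 4245 in the alternatives other than quantile normalisation (1579), centring on reference genes (5622) and testing every probe set on its own (6092); leaving out single arrays gave 2869 to 4245. The replicate block gave 4016 (1980 higher, 2036 lower), or 2954 with the 6 arrays alone, an alternative added after seeing the data. Counts that moved over 1.5 times were, under quantile normalisation, 870 higher, 709 lower, 774 at least 2-fold higher, 104 against the monolayer and 1741 against 24 h. With centring on reference genes 4052 were lower and 1125 at least 2-fold lower. With the probe set of median SD 467 were at least 2-fold lower. Probe sets on their own, with more tests, gave 3166 higher, 2926 lower, 1996 at least 2-fold higher, 1191 against the monolayer and 8478 against 24 h. Calls against the monolayer were 6928 without the background filter, 1287 with array weights and 390 to 874 when single arrays were left out. The cause was not tested. Quantile normalisation was applied to changes from the fresh median, so its lower counts do not measure how firm the calls are. Of 243 named calls 114 held in every alternative that gave the gene a value, up to 19, and 125 were lost at least once with the sign kept. The calls of Anxa2, Tmsb10, Mdm2 and Tubb6 were lost only where the sign turned. The block ended the calls of Psmd11 (adjusted p = 0.0537), Glul (0.0548) and Usp2 (0.0524) and added Vim (0.0116), and changed no other named call; fitted to the 6 arrays alone it lost 49 named calls and gained 1, against 40 lost with those arrays without the block. Signs turned with the probe set of median SD for Anxa2 (-0.066), Pde4b (1.655), Psmd11 (-0.013), Apob (-0.034), Tubb6 (-0.061), Tln1 (0.044), Acvr1 (0.026), Cldn1 (0.412) and Fcgr2b (0.129); without shared sequence for Tmsb10 (-0.039), Mdm2 (-0.025) and Cldn1 (0.412); and with reference centring for Fth1 (-0.003). The number of arrays limits the precision; weak fresh signals may lie at the floor of the scale.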

Other observations

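Called genes with more than 1 probe set numbered 2066; all probe sets were called the same way in 736, and 26 called genes held a probe set called the opposite way. Keeping only genes in which at least as many probe sets were called the same way as not, an alternative chosen after seeing the data, left 3334 of the 3671 calls. Called both against fresh cells and against the monolayer were 449 genes; the 2 comparisons share the RWV_4h arrays, so this count is given as a value only.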
